A study of Mus musculus with 12 samples.

Results

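A set of 9 genes that mark or pattern the primitive streak and its mesendoderm were followed across 12 one-colour microarrays of mouse embryonic stem cells: T, Eomes, Tbx6, Evx1, Cdx1, Lhx1, Mesp1, Mesp2 and Wnt3. They are 9 of the 45616 genes and unnamed transcripts with a probe, chosen by name, each through the probes whose transcript accession belongs to it. All 9 had a probe that passed the filter on dim spots, 10 probes in all, since Eomes had 2. Gene names follow RefSeq.

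Each condition had 3 arrays. In the first, cells received 1 µM MG132, a proteasome inhibitor, for 30 min and then 250 nM 4OHT together with MG132 for 6 h. The second received 250 nM 4OHT alone for 6 h, and the third MG132 alone, 30 min and then 6 h. The last was untreated and is titled 0 h. Cells of all 4 groups were kept in leukaemia inhibitory factor (LIF) with 250 nM PD173074, which blocks fibroblast growth factor receptors. 4OHT (4-hydroxytamoxifen) activates fusion proteins that carry a mutated oestrogen receptor domain, and the series title names transcription that depends on the proteasome and on the kinase Erk. The fusion protein and the cell clone are not named in the sources used here, nor is a vehicle. No untreated cells at 6 h are among the arrays, so compound and hours cannot be told apart in any comparison with untreated cells.

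In the embryo the primitive streak forms at the posterior side of the epiblast, where Wnt3, Nodal and bone morphogenetic protein (BMP) signals meet, and epiblast cells pass through it to become mesoderm and definitive endoderm. The T-box factors T (Brachyury) and Eomes are among the first transcription factors of the streak, and Evx1 and Cdx1 mark its posterior part. Mesp1 and Mesp2 belong to nascent and segmenting mesoderm, Tbx6 to the paraxial mesoderm that forms somites, and Lhx1 to the anterior streak and its derivatives. Embryonic stem cells in LIF correspond to an earlier stage, before the streak forms.

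Promoter sequence was available for 8 of the 9 genes, as the 250 bases before the annotated start in RefSeq on GRCm38.p6, and Cdx1 was not included. A set of 8 short motifs were searched on both strands: CTTTGA and CTTTGT for TCF/LEF factors, which act downstream of Wnt, AGGTGT for T-box factors, CCGGAA for ETS factors, GCGGGGGCG for EGR factors, AATNCACA for FOXH1, a partner of Nodal signalling, TGATGNAA for ATF4, and CATATG, an E-box. CTTTGA was found in 2 of the 8 promoters, against 13.8% of all 32851 mouse promoters, and AGGTGT in 3, against 11.8%. None of the 8 held CTTTGT (16.5% of all promoters), CCGGAA (12%), GCGGGGGCG (2.57%), AATNCACA (3.18%), TGATGNAA (3.45%) or CATATG (3.46%) in this window. Printed 5′ to 3′, in lower case with the matches in capitals, are the promoters of the genes with a match (T, Evx1 and Mesp1) and that of Eomes, which had none and rose with 4OHT as they did. T (chr17:8434173-8434422, plus strand) had TCAAAG, the reverse complement of CTTTGA, 234 to 229 bases before the start and AGGTGT 14 to 9 bases before it. In Evx1 (chr6:52313248-52313497, plus strand) the T-box letters stood on the reverse strand as ACACCT, 38 to 33 bases before the start. Mesp1 (chr7:79793591-79793840, minus strand) had AGGTGT 233 to 228 bases before its start, TCAAAG 72 to 67 bases before it and CTTTGA 31 to 26 bases before it. Eomes lies at chr9:118477939-118478188 on the plus strand.
T: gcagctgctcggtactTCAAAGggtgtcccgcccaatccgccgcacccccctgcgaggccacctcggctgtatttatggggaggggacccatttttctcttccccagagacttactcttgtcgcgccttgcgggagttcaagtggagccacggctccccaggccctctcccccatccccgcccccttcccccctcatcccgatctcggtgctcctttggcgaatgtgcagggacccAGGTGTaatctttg
Evx1: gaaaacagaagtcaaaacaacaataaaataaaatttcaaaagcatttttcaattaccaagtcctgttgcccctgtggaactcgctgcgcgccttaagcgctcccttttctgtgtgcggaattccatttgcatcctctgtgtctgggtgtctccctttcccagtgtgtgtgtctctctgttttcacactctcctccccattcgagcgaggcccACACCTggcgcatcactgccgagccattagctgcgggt
Mesp1: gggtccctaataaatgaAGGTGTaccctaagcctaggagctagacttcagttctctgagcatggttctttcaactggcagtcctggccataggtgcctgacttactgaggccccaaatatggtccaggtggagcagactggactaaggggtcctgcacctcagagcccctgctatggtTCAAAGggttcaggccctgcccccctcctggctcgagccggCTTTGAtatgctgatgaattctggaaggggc
Eomes: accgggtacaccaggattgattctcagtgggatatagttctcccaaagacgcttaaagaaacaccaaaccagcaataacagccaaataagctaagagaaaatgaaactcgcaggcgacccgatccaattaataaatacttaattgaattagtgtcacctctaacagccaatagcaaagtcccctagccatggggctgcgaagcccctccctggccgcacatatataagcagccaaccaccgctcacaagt

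Each spot's processed intensity was divided by its array's 75th percentile, which lay between 309 and 485 units, and returned to one common scale, called scaled intensity here. Between 49.5% and 63.2% of probes were well above background on an array, and the lowest were the 4OHT replicates 2 and 3 (49.5% and 53.5%). Precision is limited by the 3 arrays per group. Replicate arrays correlated at 0.976 to 0.982 with 4OHT and at 0.987 to 0.996 in the other groups. Slide 1 carried the untreated and 4OHT arrays and MG132 replicates 1 and 2, and slide 2 carried MG132 replicate 3 and all arrays with both compounds. As labelled, the cells had the RNA of pluripotent cells: all 10 pluripotency markers of a fixed list were well above background in every group. Their levels were not equal, however: the markers summed to 213786–247318 units with both compounds, 371120–387410 units with 4OHT and 230949–237529 units with MG132, against 392308–412929 units untreated. Dppa5a made up most of each sum, at 148037 units with both compounds and 218378 units untreated. Pou5f1 averaged 20790 units with both compounds, 30628 units with 4OHT, 22003 units with MG132 and 30273 units untreated. Nanog averaged 809 units with both compounds, 1217 units with 4OHT, 2202 units with MG132 and 6541 units untreated. The part of these shifts in the changes of the 9 factors was not tested. Levels are of bulk RNA, so more RNA per cell and more cells of a type cannot be told apart.

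**Figure D1:**
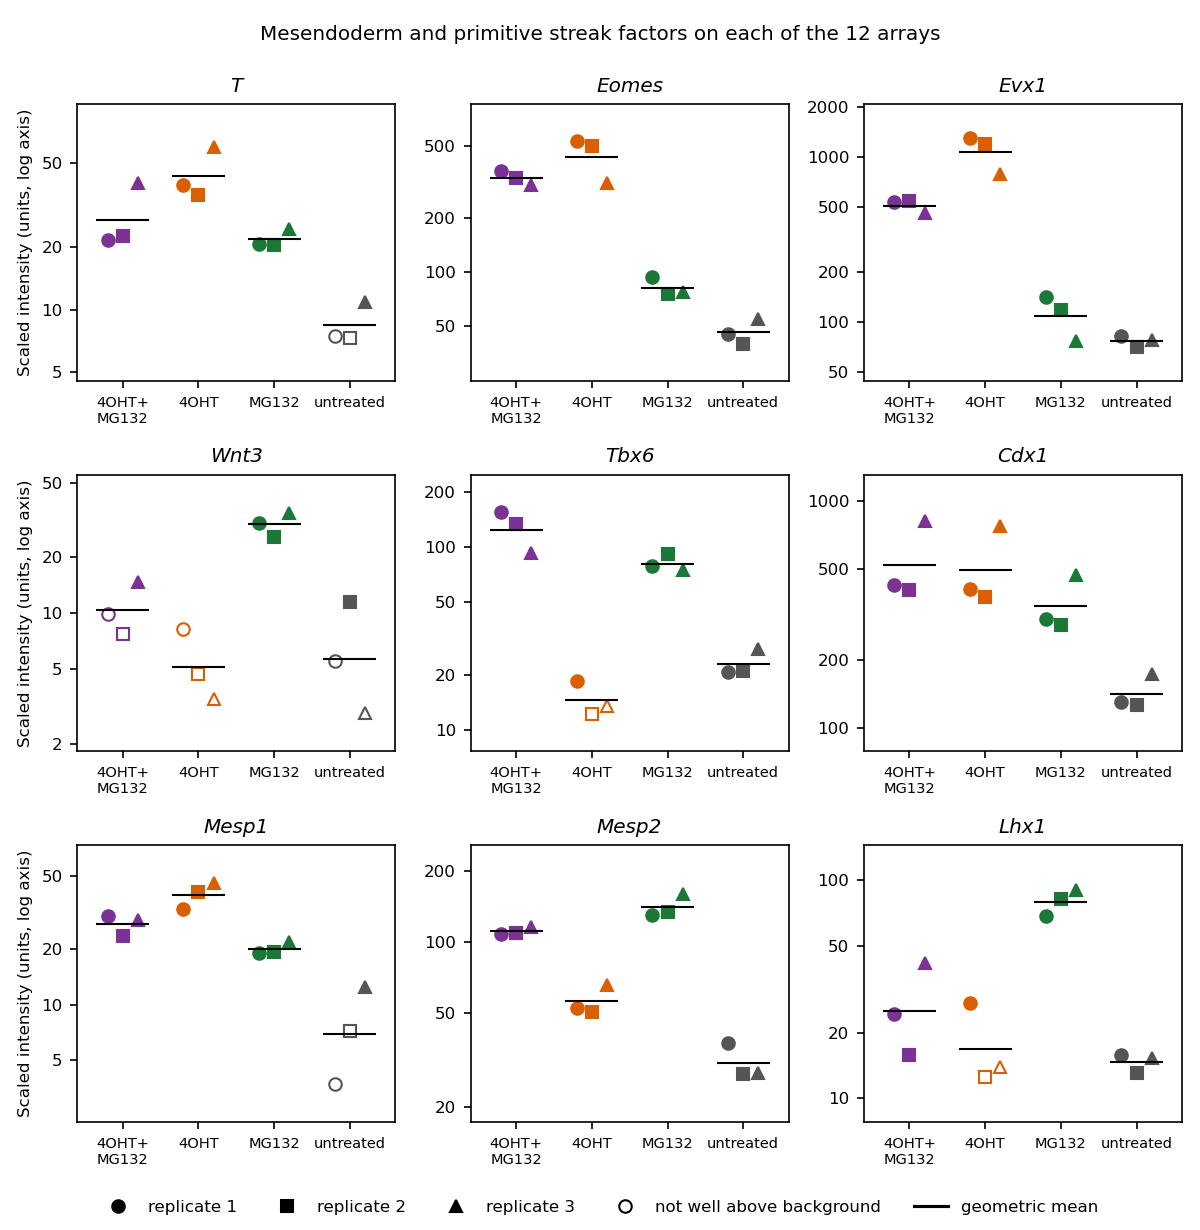
Scaled intensity (log axis, intensity units) of the 9 factors on each of the 12 arrays, by group; the marker shape gives the replicate, the line is the geometric mean, and an open marker is a spot not well above background. T, Eomes, Evx1, Cdx1 and Mesp1 lie highest in the groups given 4OHT, with or without MG132, while Wnt3, Mesp2 and Lhx1 have their highest geometric mean with MG132 alone and Tbx6 with both compounds.

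After 6 h of 4OHT, 6 of the 9 factors were higher than in untreated cells, 1 was lower and 2 did not pass the test (limma, Benjamini-Hochberg adjustment over 26841 genes, threshold 0.05). Of all genes tested, 28.6% were called in this comparison, 13.9% higher and 14.7% lower. The factors' median log2 change was 1.80, beside 0.03 over all genes. The rises were in Evx1, Eomes, Mesp1, T, Cdx1 and Mesp2, and the fall was in Tbx6. In all 7 called factors the 3 arrays of one group lay wholly apart from those of the other, as they did in 40.9% of all genes.

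T encodes the T-box factor Brachyury, which mesoderm formation requires. Its scaled intensity was 21.4, 22.4 and 40.2 units with both compounds (replicates 1, 2 and 3 throughout), 39.4, 35.3 and 59.9 units with 4OHT, 20.7, 20.3 and 24.3 units with MG132, and 7.46, 7.28 and 10.9 units untreated. All treated arrays lay above all untreated ones, of which only replicate 3 was well above background, and replicate 3 was the highest array in each of the 4 groups. The fitted rise with 4OHT was 5.20-fold (log2 2.38 ± 0.28, SE; adjusted p = 0.000145) and that with MG132 alone 2.59-fold (1.37 ± 0.28, adjusted p = 0.0027). As the untreated spots were dim these sizes are uncertain, and with normexp background correction the log2 changes were 0.80 (adjusted p = 0.000286) and 0.32 (adjusted p = 0.0501). Here and below, the normexp fit adds an offset of 50 units to every spot, which by itself shrinks the log2 changes of dim spots. In order of level the groups ran 4OHT, both compounds, MG132, untreated, and the arrays with both compounds overlapped those of each neighbour above and below.

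Eomes, the T-box factor of the anterior streak and definitive endoderm, also works in trophoblast. It read 361, 333 and 303 units with both compounds, 528, 500.1 and 312 units with 4OHT, 94.2, 75.6 and 77.3 units with MG132, and 45.2, 39.98 and 55.1 units untreated. The 6 arrays given 4OHT all exceeded the other 6, and the MG132 arrays all exceeded the untreated ones. The rise was 9.38-fold with 4OHT (log2 3.23 ± 0.20, adjusted p = 2.71e-06) and 1.77-fold with MG132 (0.82 ± 0.20, adjusted p = 0.00804). Under median centring and quantile normalization the MG132 change fell short of the threshold (0.48, adjusted p = 0.0688, and 0.55, adjusted p = 0.0505). The other Eomes probe did not pass the filter, being well above background only on 4OHT replicate 1, and read 8.94–11.3 units with both compounds, 6.55–33.1 units with 4OHT, 2.53–3.83 units with MG132 and 2.07–3.97 units untreated.

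Evx1, a homeobox gene of the posterior streak, had the largest 4OHT change of the 9. Its intensity was 531, 538 and 457 units with both compounds, 1299.6, 1192 and 783 units with 4OHT, 141, 118 and 76.2 units with MG132, and 81.7, 70.2 and 78.1 units untreated. Levels fell in the order 4OHT, both compounds, MG132 and untreated, with no overlap among the first 3, while MG132 replicate 3 lay within the untreated range. The 4OHT rise was 13.9-fold (log2 3.80 ± 0.24, adjusted p = 2.69e-06). The MG132 change of 0.50 ± 0.24 did not pass the test (adjusted p = 0.115), but it did without MG132 replicate 3 (0.76, adjusted p = 0.0175).

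Cdx1, a caudal-type homeobox gene and a known target of Wnt, read 428, 405 and 811 units with both compounds, 409.7, 377 and 778 units with 4OHT, 303, 286 and 473 units with MG132, and 131, 127 and 173 units untreated. Replicate 3 was the highest array in all 4 groups, and every treated array exceeded every untreated one. With 4OHT it rose 3.48-fold (log2 1.80 ± 0.34, adjusted p = 0.003) and with MG132 2.43-fold (1.28 ± 0.34, adjusted p = 0.0123). The 3 treated groups overlapped one another.

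Mesp1 is the basic helix-loop-helix factor of nascent and cardiac mesoderm. Its spots read 30.5, 23.6 and 28.9 units with both compounds, 33.1, 40.9 and 46.0 units with 4OHT, 19.2, 19.5 and 22.0 units with MG132, and 3.69, 7.22 and 12.5 units untreated. The 4 groups did not overlap, in the order 4OHT, both, MG132, untreated, and of the untreated arrays only replicate 3 was well above background. The fitted rise was 5.71-fold with 4OHT (log2 2.51 ± 0.35, adjusted p = 0.000458) and 2.91-fold with MG132 (1.54 ± 0.35, adjusted p = 0.00523). Given the dim untreated spots the sizes are uncertain, and with normexp correction the log2 changes were 0.78 (adjusted p = 3.95e-05) and 0.33 (adjusted p = 0.0108).

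Mesp2, its neighbour on chromosome 7, sets the borders of somites and had another order. Intensities were 108, 109.6 and 116 units with both compounds, 52.4, 50.7 and 66.1 units with 4OHT, 130.3, 134 and 161 units with MG132, and 37.3, 27.6 and 27.9 units untreated. Here too no 2 groups overlapped, but MG132 alone was highest and 4OHT stood next to untreated cells. The rise was 4.60-fold with MG132 (log2 2.20 ± 0.15, adjusted p = 3.68e-06) and 1.83-fold with 4OHT (0.87 ± 0.15, adjusted p = 0.00157). Whether either probe binds the transcript of the related gene was not tested.

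Tbx6, the T-box factor of paraxial mesoderm, was the factor that fell with 4OHT. Its values were 155, 133 and 93.1 units with both compounds, 18.5, 12.2 and 13.6 units with 4OHT, 78.6, 91.5 and 74.6 units with MG132, and 20.9, 21.0 and 27.6 units untreated. The 4 groups did not overlap, and of the 4OHT arrays only replicate 1 was well above background. The fall was small (log2 -0.66 ± 0.21, adjusted p = 0.0424), and the rise with MG132 was 3.54-fold (1.82 ± 0.21, adjusted p = 1e-04). The call on the fall was lost without 4OHT replicate 2 or 3, replicate 2 with both compounds, any one MG132 array or any one untreated array (adjusted p from 0.0534 to 0.14). With normexp background correction the sign turned (0.05, adjusted p = 0.759). In that setting the median change over all genes with 4OHT was 0.16, above that of Tbx6, beside 0.03 in the reported fit.

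Lhx1, a LIM homeobox gene of the anterior streak and node, read 24.4, 15.7 and 41.7 units with both compounds, 27.4, 12.5 and 13.9 units with 4OHT, 68.1, 81.6 and 89.8 units with MG132, and 15.7, 13.1 and 15.3 units untreated. The MG132 arrays stood above all 9 others, the 4OHT arrays overlapped those with both compounds and the untreated ones, and only replicate 1 of the 4OHT arrays was well above background. The rise with MG132 was 5.41-fold (log2 2.44 ± 0.36, adjusted p = 0.000402). The change with 4OHT was 0.20 ± 0.36 (adjusted p = 0.73; 95% interval -0.60 to 0.99).

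Wnt3 encodes the ligand that starts the streak in the embryo. It read 9.91, 7.71 and 14.8 units with both compounds, 8.29, 4.72 and 3.48 units with 4OHT, 30.5, 25.7 and 34.5 units with MG132, and 5.54, 11.5 and 2.91 units untreated. All 3 MG132 arrays were well above background and apart from the rest, whereas outside that group only untreated replicate 2 and replicate 3 with both compounds were. Wnt3 thus passed the filter only through the group in which it was highest, so its comparisons with that group are not independent of the filter. The fitted rise with MG132 was 5.26-fold (log2 2.40 ± 0.47, adjusted p = 0.0024), but with only 1 of 3 untreated spots above background its size is uncertain, and with normexp correction the log2 change was 0.49 (adjusted p = 0.0135). With 4OHT no array was well above background, so no fold against untreated cells can be given, and the fitted change of -0.15 ± 0.47 did not pass the test (adjusted p = 0.853).

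Set side by side, the MG132 comparison called 8 of the 9 factors higher than in untreated cells and 0 lower, with Evx1 the one not called. The 8 include Wnt3, which passed the filter only through the MG132 arrays. MG132 changed many genes: 43.1% of all genes were called, 24.1% higher and 19.0% lower. The median change of the factors was 1.54, beside 0.07 over all genes. Their largest rises were in Lhx1, Wnt3, Mesp2 and Tbx6, for which the 4OHT changes were 0.20, -0.15, 0.87 and -0.66. In the 8 called factors the groups did not overlap, as in 59.5% of all genes. Both comparisons use the same untreated arrays, so their values are not independent. When only slide 1 was used, which leaves MG132 replicates 1 and 2, all 9 factors were called higher.

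**Figure D2:**
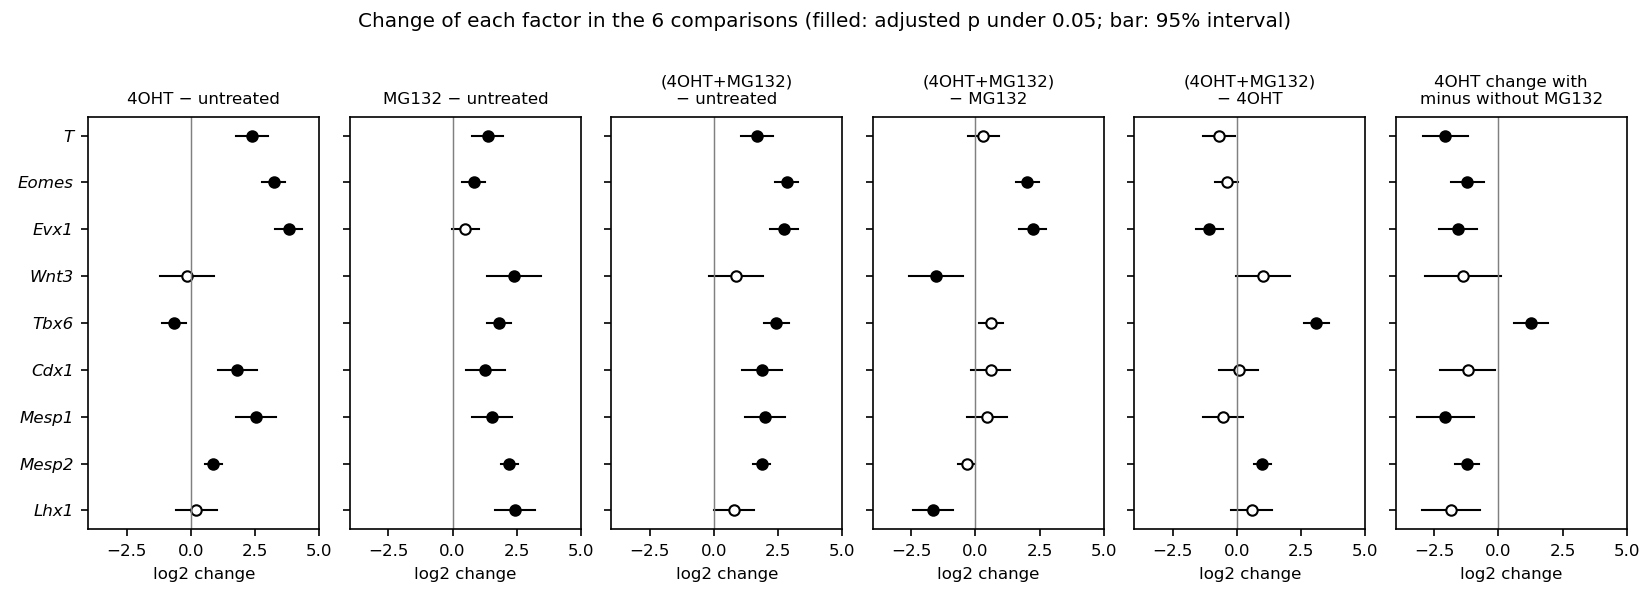
Log2 change (horizontal axis) of each factor in the 6 comparisons, with its 95% interval as a bar and a filled point where the adjusted p passed 0.05. The first 2 panels differ in which factors moved most: Evx1 changed by 3.80 with 4OHT and 0.50 with MG132, and Lhx1 by 0.20 and 2.44.

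In cells given both compounds, 7 of the 9 factors were higher than in untreated cells and Wnt3 and Lhx1 were not called, while 55.6% of all genes were called, 33.2% higher and 22.5% lower. Eomes was 7.15-fold higher (log2 2.84 ± 0.20, adjusted p = 2.56e-06), Evx1 6.63-fold (2.73 ± 0.24, adjusted p = 8.7e-06) and Tbx6 5.41-fold (2.44 ± 0.21, adjusted p = 9.19e-06). The rises of Mesp1 (1.99), Cdx1 (1.87), Mesp2 (1.86) and T (1.68) were smaller. The median was 1.87, beside 0.19 over all genes, and the groups did not overlap in 8 factors, as in 72.0% of all genes. With slide as a block, which rests on the single MG132 array shared with slide 2, the calls on T (1.43, adjusted p = 0.0727), Mesp1 (1.80, adjusted p = 0.077) and Cdx1 (1.19, adjusted p = 0.176) were lost. Wnt3 was called without untreated replicate 2 (1.38, adjusted p = 0.0223), and Lhx1 without replicate 2 with both compounds (1.12, adjusted p = 0.0225) or without 4OHT replicate 1 (adjusted p = 0.0442).

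Under MG132, in the fit without a block, the addition of 4OHT raised Eomes and Evx1, lowered Lhx1 and Wnt3, and left 5 factors uncalled. Of all genes 26.5% were called (13.9% higher, 12.6% lower). Eomes was 4.04-fold higher with both compounds than with MG132 alone (log2 2.02 ± 0.20, adjusted p = 0.00014) and Evx1 4.68-fold (2.23 ± 0.24, adjusted p = 0.000196). Lhx1 was 3.15-fold lower (-1.65 ± 0.36, adjusted p = 0.00783) and Wnt3, which passed the filter only through the MG132 arrays, 2.88-fold lower (-1.53 ± 0.47, adjusted p = 0.0381). T (0.31, 95% interval -0.31 to 0.92), Cdx1 (0.59, -0.17 to 1.36), Mesp1 (0.45, -0.33 to 1.23), Mesp2 (-0.34, -0.67 to -0.01) and Tbx6 (0.61, 0.14 to 1.09) did not pass the test. These intervals are not adjusted for the number of genes, and those of Mesp2 and Tbx6 leave out 0 (adjusted p = 0.121 and 0.0589). Groups did not overlap for 4 factors in the higher and 3 in the lower direction, as for 50.2% of all genes.

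The sample titles number the replicates but do not call them pairs. In this comparison and in that of both compounds with untreated cells, same-numbered deviations correlated over 0.1 for each replicate. The correlations were weak for replicates 1 and 2 (0.131 to 0.156) and higher for replicate 3 (0.354 and 0.407). Whether the numbers mark pairs is therefore not settled, and the fit reported above had no replicate term. With the replicate as a block Cdx1 was called (0.59, adjusted p = 0.00943) and Wnt3 was not (-1.53, adjusted p = 0.0532). With normexp correction Wnt3 changed by -0.14 (adjusted p = 0.467). The Wnt3 call was also lost when any one MG132 array, replicate 1 or 2 with both compounds or untreated replicate 1 was left out (adjusted p from 0.0554 to 0.126). Tbx6 was called without 4OHT replicate 1 (0.61, adjusted p = 0.0374) or without replicate 3 with both compounds (0.82, adjusted p = 0.0201). On slide 2 alone, with the 3 arrays with both compounds against the single MG132 array there, which has no spread of its own and is assumed to vary like those 3, Eomes (adjusted p = 0.0207) and Evx1 (adjusted p = 0.016) were called and Wnt3 (adjusted p = 0.0913) and Lhx1 (adjusted p = 0.148) were not. The same held with slide as a block over all arrays, where Wnt3 changed by -1.73 (adjusted p = 0.16) and Lhx1 by -1.83 (adjusted p = 0.0577).

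Set against 4OHT alone, cells given both compounds had more Tbx6 and Mesp2 and less Evx1. Tbx6 was 8.55-fold higher (log2 3.10 ± 0.21, adjusted p = 2.87e-06), Mesp2 1.99-fold higher (0.99 ± 0.15, adjusted p = 0.000365) and Evx1 2.10-fold lower (-1.07 ± 0.24, adjusted p = 0.00392). With only 1 of the 4OHT arrays well above background, the Tbx6 size is uncertain. With normexp correction its log2 change was 1.07 (adjusted p = 1.89e-05). The other 6 were not called, among them T (-0.70, adjusted p = 0.0565) and Eomes (-0.39, adjusted p = 0.132), and Cdx1 differed by 0.07 (95% interval -0.69 to 0.84). With 50.2% of all genes called (29.3% higher, 20.9% lower), 3 of 9 is below the background share. The groups lay apart in 2 factors in each direction, as in 57.5% of all genes.

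The 4OHT arrays lay on slide 1 and those with both compounds on slide 2. With slide as a block only Tbx6 remained called (3.28, adjusted p = 0.00112), and Evx1 (-0.31, adjusted p = 0.562) and Mesp2 (0.71, adjusted p = 0.0839) did not. No call on Tbx6, Mesp2 or Evx1 was lost when 1 array was left out, but other factors gained one. Eomes was called lower without 4OHT replicate 3 (-0.63, adjusted p = 0.00844), and T without 4OHT replicate 2 (-0.86, adjusted p = 0.0447) or replicate 3 with both compounds (-0.99, adjusted p = 0.0101). Without 4OHT replicate 1, Wnt3 (1.36, adjusted p = 0.0438) and Lhx1 (0.94, adjusted p = 0.0387) were called higher, and Wnt3 also without untreated replicate 2 (adjusted p = 0.0477).

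**Figure D3:**
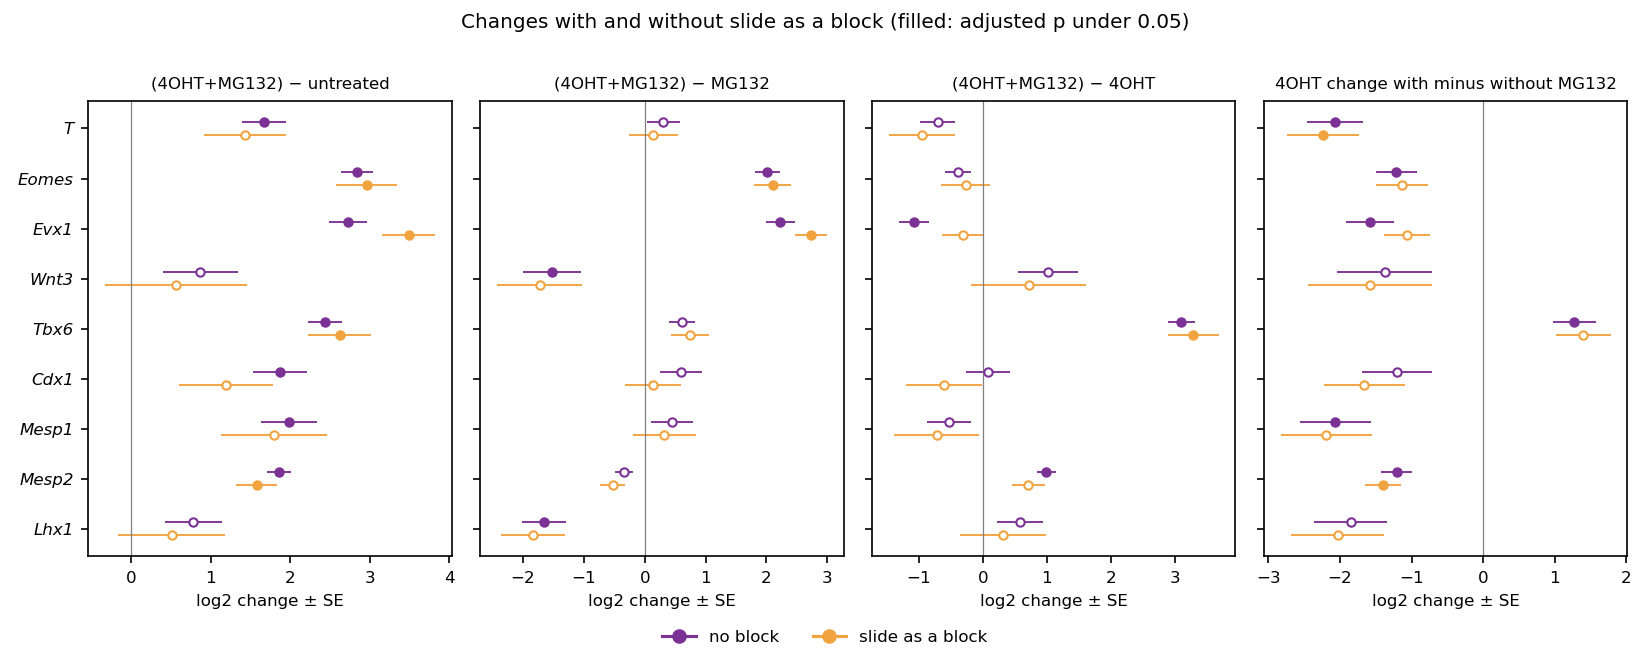
Log2 change ± SE (horizontal axis) of each factor in the 4 comparisons that involve both compounds, fitted without a block (purple) and with slide as a block (orange); filled points passed an adjusted p of 0.05. Eomes and Evx1 stay filled with slide as a block in the first 2 panels, and in the third only Tbx6 does.

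The difference between the 4OHT change with MG132 and that without it was tested as an interaction over the 4 groups. The change without MG132 is taken against untreated cells at 0 h, so it also holds 6 h of culture, and the change with MG132 does not. Hours and compound therefore cannot be told apart in the interaction either. It was called for 6 of the 9 factors, 5 with a lower 4OHT change under MG132 and Tbx6 with a higher one, against 6.56% of all genes (2.94% higher, 3.61% lower). T shifted by -2.07 ± 0.39 on the log2 scale (adjusted p = 0.0125), since 4OHT changed it by 0.31 with MG132 and by 2.38 without it. Mesp1 shifted by -2.07 ± 0.50 (adjusted p = 0.0349), Evx1 by -1.58 ± 0.34 (adjusted p = 0.0211), Eomes by -1.21 ± 0.29 (adjusted p = 0.0328) and Mesp2 by -1.21 ± 0.21 (adjusted p = 0.00878). As T and Mesp1 were dim in untreated cells, the sizes of their shifts are uncertain. With normexp correction these were -0.57 for T and -0.53 for Mesp1. Tbx6 went the other way: its 4OHT change was 0.61 with MG132 and -0.66 without it, a difference of 1.27 ± 0.30 (adjusted p = 0.0339). Cdx1 (-1.21 ± 0.48, adjusted p = 0.186), Wnt3 (-1.38 ± 0.67, adjusted p = 0.276) and Lhx1 (-1.85 ± 0.51, adjusted p = 0.0587) did not pass. With MG132 alone 8 of the 9 were called higher than in untreated cells, among them Wnt3, which passed the filter only through the MG132 arrays. Eomes averaged 331 units with both compounds and 435 units with 4OHT.

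Several of these calls lay close to the threshold. The call on Eomes was lost without either 4OHT replicate 1 or 2, any array with both compounds, or replicate 1 or 2 of the MG132 or untreated arrays (adjusted p from 0.0502 to 0.0893), and that on Evx1 without any array with both compounds, MG132 replicate 2 or untreated replicate 2 (0.0501 to 0.0606). Mesp1 was not called without 4OHT replicate 2 or 3, any array with both compounds, any MG132 array or untreated replicate 2 (0.055 to 0.093). For Tbx6 the same held without 4OHT replicate 2 or 3, replicate 1 or 2 with both compounds, any MG132 array or any untreated array (0.0522 to 0.0907), and Lhx1 was called without replicate 3 with both compounds (-2.22, adjusted p = 0.0221). Quantile normalization ended the calls on Eomes (-0.96, adjusted p = 0.074), Evx1 (-1.29, adjusted p = 0.0606) and Mesp1 (-1.94, adjusted p = 0.0534), and median centring that on Mesp1 (-1.97, adjusted p = 0.0522). Normexp background correction ended those on T (-0.57, adjusted p = 0.0647) and Tbx6 (0.43, adjusted p = 0.182), and with it Lhx1 was called (-0.97, adjusted p = 0.00985), as it was under median centring (adjusted p = 0.0498) and quantile normalization (adjusted p = 0.0405). With slide as a block only T (-2.24, adjusted p = 0.0496) and Mesp2 (-1.40, adjusted p = 0.0213) were called.

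**Figure D4:**
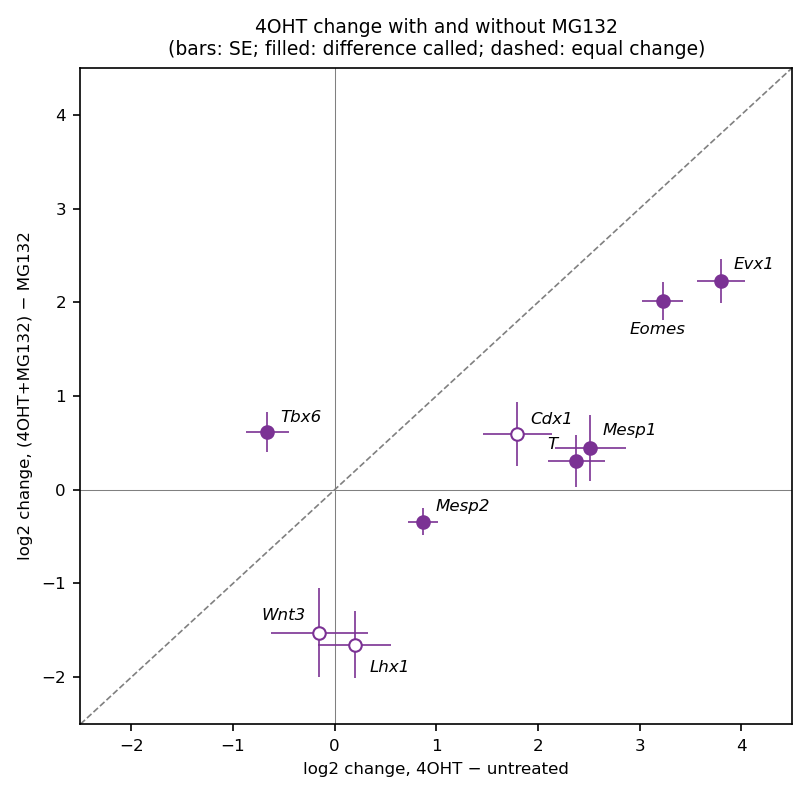
Log2 change with 4OHT in the presence of MG132 (vertical axis) against that in its absence (horizontal axis) for the 9 factors, with SE bars; the dashed line marks equal change and filled points are factors whose difference was called. Only Tbx6 lies above the line, at 0.61 against -0.66, and Eomes and Evx1 are the factors with a called rise in both.

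Replicate 3 was often the highest or lowest array for part of the set. T and Cdx1 were highest on replicate 3 in all 4 groups, Mesp1 and Mesp2 in 3 of 4, and Evx1 was lowest on it in 3 of 4. Eomes and Tbx6 were highest on it in 1 group and lowest in 2, Wnt3 in 2 and 2, and Lhx1 in 2 and 0. How often this holds over all genes was not computed. With replicates 1 and 2 alone, an alternative chosen after the data were seen, 6 factors were called with 4OHT, all higher, 9 with MG132, 7 with both compounds against untreated cells, 6 with both against MG132, 5 with both against 4OHT and 6 in the interaction. In that fit Tbx6 lost its call with 4OHT (-0.48, adjusted p = 0.146) and in the interaction (1.24, adjusted p = 0.0588), and Cdx1 gained one in the interaction (-1.11, adjusted p = 0.00741).

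Besides the pluripotency markers, the summed levels of markers of other cell types differed between the groups. Trophoblast markers, 9 of 10 of which passed the filter and which include Eomes, summed to 10819–17886 units with both compounds, 8374–19401 units with 4OHT, 6819–7920 units with MG132 and 4819–5288 units untreated, with Elf5 above background on no array. Krt18 was the largest single part of that sum in each group (9536 units with 4OHT, 1537 units untreated). Definitive endoderm markers, 5 of 8 passing, summed to 17933–26375 units with both compounds, 61906–106994 units with 4OHT, 7117–10524 units with MG132 and 25139–41730 units untreated. Most of that sum was Trh, while Cer1 and Ttr were above background on no array. Markers of blood, vessel and heart mesoderm, 10 of 12 passing, summed to 1551–1813 units with both compounds, 1425–1668 units with 4OHT, 2165–2364 units with MG132 and 2106–2614 units untreated, with Hba-x above background on no array. Fibroblast and feeder markers, 8 of 13 passing, summed to 14431–21584 units with both compounds, 32449–42462 units with 4OHT, 6360–8343 units with MG132 and 11094–18645 units untreated, and Twist2 and Lum were above background on no array. Vim made up most of that sum (26100 units with 4OHT, 12430 units untreated). Col1a1, Pdgfrb and Dcn were lower with 4OHT than untreated, and the other passing markers of this list were higher. Primitive endoderm markers, 10 of 10 passing, summed to 10666–15438 units with both compounds, 4734–12980 units with 4OHT, 9954–16262 units with MG132 and 11759–16818 units untreated, and most of that was Lama1. Neural progenitor markers, 6 of 7 passing, summed to 1548–2563 units with both compounds, 2555–4012 units with 4OHT, 844–1350 units with MG132 and 1320–1586 units untreated, with Fabp7 above background on no array. Their part in the changes of the 9 factors was not tested.

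Other genes of the streak did not move as one. Of 40 listed genes of the streak and early mesoderm, 33 passed the filter, and Mixl1, Cdx4, Msgn1, Hoxb1, Foxc1, Cer1 and Rspo3 did not. With 4OHT 10 of the 33 rose and 8 fell (of all genes 13.9% and 14.7%), with a median of 0.09. Cdx2, a caudal-type gene like Cdx1, was not well above background in untreated cells and was at least 117-fold higher with 4OHT (adjusted p = 6.85e-05). Hand1 of extraembryonic and lateral mesoderm rose by 4.33 ± 0.54 on the log2 scale (adjusted p = 0.000232), Meox1 of the somites by 3.10 ± 0.54 and Kdr, the VEGF receptor of early vascular mesoderm, by 2.95 ± 0.32. Only 1 untreated array was well above background for Hand1, so the size of its rise is uncertain. The anterior streak gene Gsc was at least 6.13-fold lower (adjusted p = 5.6e-06), Foxa1 at least 1.30-fold lower, Snai2 fell by 2.44 ± 0.53 and Tbx3 by 1.93 ± 0.29.

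With MG132 alone 7 of the 33 rose and 6 fell (median 0.19), close to the shares of all genes (24.1% and 19.0%). Tbx4, a T-box gene of the allantois and hindlimb, rose by 5.17 ± 0.36 (adjusted p = 4.44e-06), Foxc2 was at least 4.29-fold higher and Wnt8a, another ligand of the streak, at least 2.97-fold higher, and Foxa1 rose by 1.49 ± 0.27. Bmp4 (-1.09), Tcf15 (-0.92), Fgf4 (-0.88) and Aplnr (-0.69) fell. With both compounds against untreated cells 14 rose and 6 fell (median 0.63), led by Cdx2 at least 36.7-fold, Tbx4 (4.06), Wnt8a at least 4.34-fold and Hand1 (3.21, uncertain as most untreated spots were dim). Against MG132 alone 9 rose and 5 fell (median 0.19), with Cdx2 at least 25.0-fold, Hand1 at least 3.78-fold, Bmp4 (1.72) and Dll1 (1.70) higher and Gsc (-1.69), Fgf4 (-1.26) and Tbx4 (-1.11) lower and Wnt3a at least 2.47-fold lower. Against 4OHT alone 13 rose and 6 fell (median 0.16), with Tbx4 at least 8.97-fold, Snai2 (3.63), Foxa1 at least 2.61-fold and Isl1 at least 2.57-fold higher, and Meox1 at least 8.85-fold, Tcf15 (-1.93), Bmp4 (-1.92) and Fgf4 (-0.60) lower. Of all genes, 33.2% were higher and 22.5% lower with both compounds against untreated cells. The shares were 13.9% and 12.6% against MG132, and 29.3% and 20.9% against 4OHT.

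In the interaction 4 of the 33 were called higher, Gsc (3.07 ± 0.48), Dll1 (2.42 ± 0.44), Isl1 (2.16 ± 0.30) and Foxa1 (1.95 ± 0.38), and 3 lower, Meox1 (-3.21 ± 0.76), Foxc2 (-2.09 ± 0.50) and Tcf15 (-1.01 ± 0.17). Of all genes 2.94% were called higher and 3.61% lower. Gsc, Isl1, Foxa1, Meox1 and Foxc2 were each not well above background in at least 1 group, so the sizes of their fitted shifts are uncertain. The median over the list was 0.00, beside -1.38 over the 9 factors and 0.05 over all genes.

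Genes of the Nodal and Wnt pathways, which act upstream of the streak, were read from a list of 27, all of which passed the filter. With 4OHT 7 rose and 8 fell (median -0.11), where 13.9% of all genes rose and 14.7% fell. Among the Wnt targets and effectors, Sp5 (2.82 ± 0.33, adjusted p = 0.000164), Lef1 (1.95 ± 0.32) and Tcf7 (1.45 ± 0.12) rose. Furin (1.17 ± 0.15), a protease that processes Nodal, rose too. Of the list's other Wnt genes, Fzd7 (0.75) and Ctnnb1 (0.38) also rose, and Fzd5 (-1.18), Tcf7l1 (-0.80) and Fzd2 (-0.69) fell. Axin2 (39.1 units with 4OHT, 52.6 units untreated), Nkd1 (27.1 and 35.7 units) and Dkk1 (8.11 and 11.7 units) were among those not called. The Nodal targets and antagonists Lefty1 and Lefty2 fell by 6.10 ± 0.54 (adjusted p = 2.39e-05) and 2.20 ± 0.20, Smad3 by 1.94 ± 0.30 and Nodal by 1.77 ± 0.22. With MG132 3 rose and 9 fell (median -0.05): Nkd1 (1.71), Smad4 (0.58) and Tcf7 (0.50) were higher, and Lefty1 (-3.99), Tdgf1 (-2.69), Lefty2 (-2.51) and Fzd2 (-1.53) lower. Of all genes 24.1% rose and 19.0% fell with MG132.

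With both compounds 6 of the 27 rose and 14 fell against untreated cells (median -0.38), Nkd1 (1.96) and Tcf7 (1.14) among the rises and Lefty1 (-4.21) and Tdgf1 (-3.28) among the falls. Against MG132 alone 3 rose and 9 fell (median -0.12), with Furin (1.07), Tcf7 (0.63) and Acvr2a (0.60) higher and Smad3 (-1.39) lowest. Against 4OHT alone 3 rose and 8 fell (median -0.30), with Nkd1 (2.36), Lefty1 (1.89) and Nodal (0.96) higher and Tdgf1 (-3.11), Lef1 (-2.90), Fzd7 (-2.11) and Sp5 (-1.86) lower. In the interaction Lefty1 (5.88 ± 0.76) and Lefty2 (1.98 ± 0.29) were called higher and Sp5 (-2.61 ± 0.47) and Tcf7 (-0.81 ± 0.17) lower. Of all genes, 33.2% were higher and 22.5% lower with both compounds against untreated cells, and 13.9% and 12.6% against MG132. The shares were 29.3% and 20.9% against 4OHT, and 2.94% and 3.61% in the interaction. Lefty1 averaged 151 units with both compounds, 40.8 units with 4OHT and 175 units with MG132, against 2792 units in untreated cells.

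**Figure D5:**
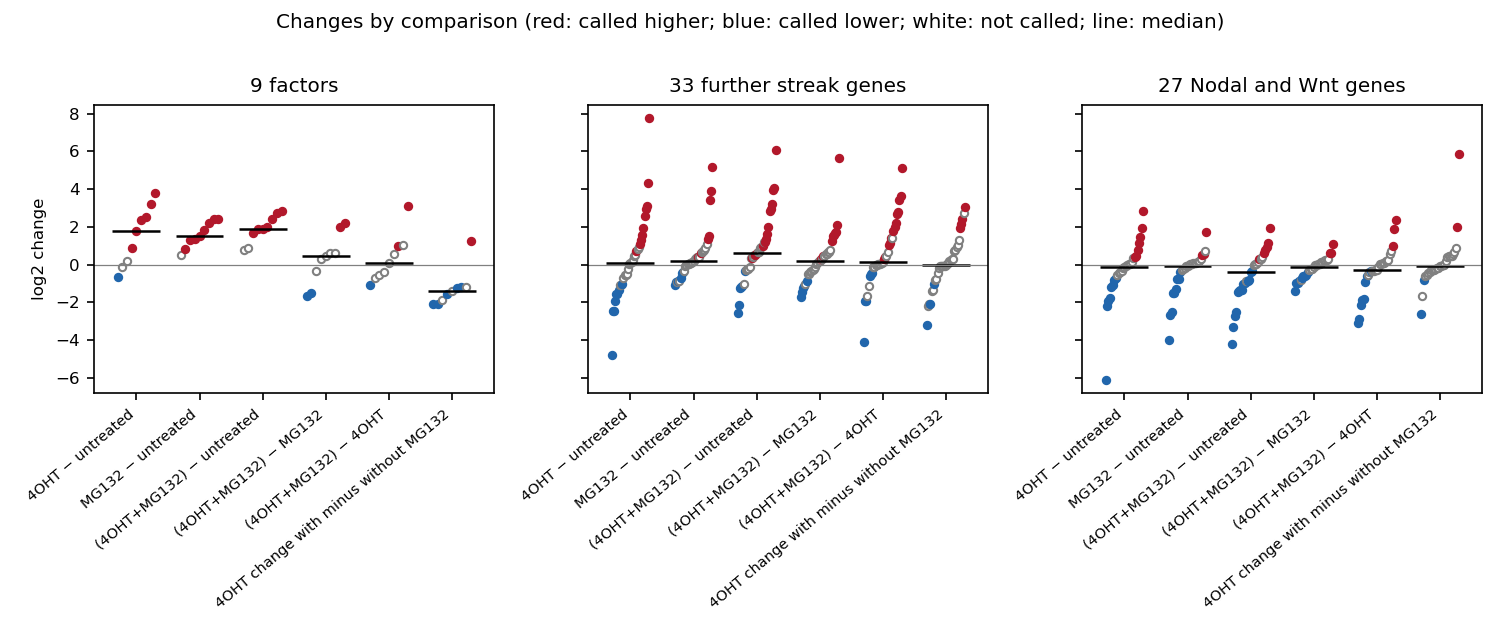
Fitted log2 change (vertical axis) of each of the 9 factors, 33 further streak genes and 27 Nodal and Wnt genes in the 6 comparisons; red points were called higher, blue lower and white not called, and the line is the median. The factors have medians of 1.80, 1.54 and 1.87 in the 3 comparisons with untreated cells, the further streak genes 0.09, 0.19 and 0.63, and the pathway genes -0.11, -0.05 and -0.38.

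Across the 12 arrays the 9 factors fell into different patterns, given here as Pearson correlations of log2 values, over points that share group and slide. Eomes and Evx1 were the most alike pair (r = 0.979), followed by T with Cdx1 (0.938) and T with Mesp1 (0.930), and Wnt3 ran with Lhx1 (0.892), while Evx1 and Wnt3 had the lowest value (-0.34). The named genes most like each factor were Sh3bp5, Ino80e and Rhd for T (0.963 to 0.975), Midn, Pax1 and Twsg1 for Eomes (0.989 to 0.991), and Slc35d3, Pou3f1 and 5730416F02Rik for Evx1 (0.989 to 0.994). For Tbx6 they were Rasgef1b, H2-Q7 and Mis12 (0.985 to 0.991), and for Cdx1 Tmprss5, Ybx3 and Rbm28 (0.954 to 0.961). Mesp1 was closest to Sh3bp5, Tmprss5 and 1700092M07Rik (0.962 to 0.970) and Mesp2 to Il1r2, Serinc2 and Fchsd1 (0.975 to 0.987). Lhx1 was closest to Adcy6, Plxnb2 and Chrna10 (0.942 to 0.952) and Wnt3 to Cnbd2, B3gntl1 and Cyct (0.937 to 0.942).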

How the data were processed

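Cy3-labelled RNA (100 ng of total RNA per sample) was measured on Agilent mouse arrays, per the labels, 3 in each of 4 groups that the design text calls biological replicates. The authors deposited scanner files whose intensity values come from Agilent's Feature Extraction software, per the file headers, and the processed intensity was used, from which local background and spatial trend had been removed but which was not scaled between arrays. The intensity values in the series-wide columns the authors deposited were identical (largest difference 0).

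Of 62976 spots, 3671 were controls and did not enter, nor did 1707 spots flagged as outliers over the 12 arrays. Spots of a probe were averaged, and 32994 of 56605 probes were named through RefSeq. Values are the log2 of intensity minus the log2 of the array's 75th percentile over non-control spots. A probe was kept if some group had it well above background on each of its arrays (34332 probes), and the probe with the highest mean stood for its gene, giving 26841 genes. A single limma model (version 3.58.1, R 4.3.3) held all 12 arrays and a term for each group, with 8 residual and 2.08 prior degrees of freedom and Benjamini-Hochberg adjustment at 0.05. Intervals are at 95% and are not adjusted for multiple testing, so one that leaves out 0 can go with an adjusted p over 0.05. No exact test was run, as 3 arrays against 3 cannot reach a p under 0.1. Where a group had no array well above background, the fold is a bound: the brighter group's mean over the dim group's mean of, per array, whichever is higher, the probe's own signal or the dimmest signal well above background. Means and folds are of log2 values.

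Named genes are the 9 factors, per list and comparison up to 4 called genes with the largest change in each direction, and the 3 named genes most correlated with each factor. Further Wnt genes of the 4OHT comparison were added after their values were seen. The factors, lists and tests were chosen with earlier results of these data known. Deviations of same-numbered arrays correlated over 0.1 throughout only for both compounds against MG132 (0.156, 0.144 and 0.407) and against untreated cells (0.131, 0.152 and 0.354). Between MG132 and untreated cells the values were 0.038, 0.154 and 0.349, so the numbers were not shown to mark pairs. The reported fit had no replicate term, and the replicate block was run as an alternative. The alternatives changed the background correction, the scaling (quantile, median), the filter (none, all arrays) and the probe summary. They also changed the variance model (array weights, trend and robust), the arrays entered and the block (slide, replicate). Background correction by normexp (offset 50) took the median spot and background signals in place of the processed intensity. A percentile over probes and a fit on replicates 1 and 2 were added after seeing the data. Software also included the R package data.table (version 1.17.8), jsonlite 2.0.0, Python 3.11.15, numpy 2.4.6 and matplotlib 3.10.9.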

Additional observations from a re-analysis of the deposited data

Results flagged for a closer look

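A total of 6 of the 9 factors differed between the 4OHT change with MG132 and that without it, by the interaction test of limma. The change without MG132 is taken against untreated cells at 0 h, so 6 h of culture enter it and not the other. The differences (log2, with MG132 minus without) were -2.07 for T, -1.21 for Eomes, -1.58 for Evx1, -2.07 for Mesp1, -1.21 for Mesp2 and 1.27 for Tbx6. T and Mesp1 were dim in untreated cells, and with normexp correction their differences were -0.57 and -0.53. The 4OHT changes behind them were 0.31 with and 2.38 without MG132 for T, 2.02 and 3.23 for Eomes, 2.23 and 3.80 for Evx1, 0.45 and 2.51 for Mesp1, -0.34 and 0.87 for Mesp2, and 0.61 and -0.66 for Tbx6. All arrays with both compounds lay on slide 2 and all 4OHT and untreated arrays on slide 1, so only MG132 replicate 3 links the slides to the groups. With slide as a block, T and Mesp2 were called and the other 4 were not. Leaving out 1 array ended the call for Eomes (9 of 12 arrays), Mesp1 (9), Tbx6 (10) and Evx1 (5), and no array did so for T or Mesp2.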

How the results depend on the processing

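Under the alternatives 458 recomputed counts of calls stayed within 1.5 times the reported count and 52 did not. With the filter on all 12 arrays only Eomes, Evx1, Cdx1 and Mesp2 stay in the table, and 4, 3, 2, 4 and 3 factors were called for 4OHT, MG132, both against MG132, both against untreated and the interaction, with 8, 8, 8, 10, 10 and 1 further streak genes for 4OHT, MG132, both against MG132, against 4OHT, against untreated and the interaction. With slide as a fixed block 2 (against MG132), 1 (against 4OHT), 4 (against untreated) and 2 (interaction) factors were called, 7 and 9 streak genes against MG132 and 4OHT, and 5, 7 and 9 pathway genes against MG132, 4OHT and untreated cells. With replicate block and slide together the interaction called 1 factor (T) and both against 4OHT 1, with 4, 10, 11 and 3 streak genes (against MG132, 4OHT, untreated, interaction) and 6, 5 and 8 pathway genes. Within slide 2, where MG132 has 1 array with no spread of its own, assumed to vary like those with both, both against MG132 called 2 factors, 5 streak genes and 2 pathway genes. Both against 4OHT called 5 factors under median centring and with replicates 1 and 2 only. Streak genes against MG132 were 9 with no filter and 9 with slide as a random block, and in the interaction 13 with array weights and 4 with normexp. Pathway genes in the interaction were 8 with array weights and 9 with replicates 1 and 2 only.

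Leaving out 1 array gave 3 to 5 factors for both against 4OHT (5 without 4OHT replicate 1) and 2 to 5 in the interaction, with 9 to 15 streak genes for both against MG132, 5 to 11 in the interaction, and 7 to 12 pathway genes for both against MG132. Direction turned for uncalled changes and for Tbx6. For 4OHT against untreated, Wnt3 was 0.24 with normexp and -0.64 to 0.36 over the fits without 1 array, positive without 4OHT replicate 3 (0.13) or untreated replicate 2, Lhx1 was -0.0217 with array weights and -0.15 without 4OHT replicate 1, and Tbx6 was 0.0502 with normexp. For both against 4OHT, Cdx1 was -0.17 under median centring, -0.61 and -0.0101 with slide as a fixed and a random block, and -0.25 to 0.40 over the fits without 1 array, below 0 without 4OHT replicate 1 (-0.06) or 2 (-0.12) or replicate 3 with both. Median centring put the median of all genes at -0.13 with 4OHT, -0.27 with MG132 and -0.21 with both, against untreated cells. Normexp put it at 0.16, 0.09 and 0.21. With normexp Eomes changed by 2.15 with 4OHT and 0.38 with MG132, and Tbx6 by 0.65 and Lhx1 by 0.99 with MG132, each smaller than reported and still called. The offset of 50 units in that setting by itself makes the changes of dim probes smaller. Normexp ended the calls on T with MG132 and in the interaction, Tbx6 with 4OHT and in the interaction, and Wnt3 for both against MG132, and added calls on Lhx1 with 4OHT, Tbx6 for both against MG132, Lhx1 and Wnt3 for both against untreated, and Lhx1 in the interaction.

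The replicate numbers of all groups were checked: same-numbered deviations correlated at -0.06 to 0.41, over 0.1 in 11 of 18 pairs. The replicate block was also run where same-numbered deviations did not correlate over 0.1 throughout. It called 6 factors with 4OHT (Tbx6 lost), 9 with MG132 (Evx1 added), 4 for both against 4OHT (T added, adjusted p = 0.00234) and 8 in the interaction. For both against untreated cells the block changed no call (7). No second probe of a factor passed the filter, so that alternative gave no value. Dim probes (Wnt3, T and Mesp1 in untreated cells, and Tbx6 and Lhx1 with 4OHT) limit what their changes can show.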
